A study of Bos taurus with 45 samples.

Results

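The genes described here were each read in about every second embryo and gave many counts where they were read. They were chosen by their own read counts in 40 libraries of single bovine demi-blastocysts, as the genes that reached 5 or more counts in 16 to 24 libraries, and of 1784 such genes the 100 with the highest median level in the libraries that read them were kept, out of 24616 genes in the table. Level means CPM, a gene's count divided by the library total and multiplied by 1000000, and a library is said to read a gene when it holds 5 or more counts of it. The choice also left out a fixed set of identifiers, 3 of which lay in this band. The number of libraries reading each gene and its level there chose the members, so both are given as a description. Tests are made only on how reading and level divide by outcome or treatment, labels that the choice did not use.

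Each library came from 1 part of a day 7 blastocyst made in vitro with sperm sorted for the X chromosome, and the other part went into a recipient cow. From day 5 to day 7 the culture medium, free of serum in both arms, held 10 ng/ml of recombinant bovine CSF2 (colony stimulating factor 2, a cytokine) or vehicle. The outcome groups are named for the transferred part. In the group called not established the recipient was not pregnant at day 30 (26 of the 40 libraries, 12 with CSF2 and 14 with vehicle), in the group called lost a pregnancy of day 30 had ended by day 60 (5 libraries, 1 with CSF2 and 4 with vehicle), and in the group called maintained it was present at both examinations (9 libraries, 5 with CSF2 and 4 with vehicle). The sequenced part is the sister of the part whose fate names the group, and after an uneven cut it was the smaller or less intact one. Each replicate was thus a different embryo, and the labels do not say which embryos shared parents or a culture batch.

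A blastocyst holds trophectoderm, the outer cells that go on to form much of the placenta, and an inner cell mass, from which the fetus arises. CSF2 is made by the reproductive tract and acts on the preimplantation embryo. Of the 24616 Ensembl identifiers 0 could be paired with a name, so the members are given by identifier, their functions are not described, and the labelled tissue could not be checked against its markers. CPM is not divided by transcript length, so the rank of a gene orders read counts and not amounts of transcript. In such samples fewer cells of a type and less RNA per cell cannot be told apart.

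The 40 libraries held between 3906252 and 10326829 counts, and between 1095 and 6137 genes were read in each. A count of 0 in them allows a level of up to 0.290 CPM in the deepest and 0.768 CPM in the shallowest, from 3 counts over the total, which covers counting error only. The library with the fewest genes was not established replicate 25. Another 5 libraries, with 137808 to 853817 counts, took no part in the choice and are described apart.

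The members lay mostly at 0 or far above the minimum. Of the 4000 pairs of a member and a library, 1595 (39.9%) held no count and 319 (7.98%) held 1 to 4 counts. A further 134 pairs (3.35%) held 5 to 19 counts, 209 (5.23%) held 20 to 99, 651 (16.3%) held from 100 to under 1000 and 1092 (27.3%) held 1000 or more. Among the 2086 pairs that counted as read, the median was 1058 counts and the highest 16495. Intermediate counts were thus the rarest classes. The choice took the genes with the highest levels where read, so it favoured large counts. Over the other 1684 genes read in 16 to 24 libraries 13.3% of pairs held 1000 or more counts, 5.7% held 5 to 19 and 8.4% held 20 to 99. Of the 1914 pairs below the minimum 83.3% stood at exactly 0, against 86.2% over those other genes. Without not established replicate 25 the share for the members was 83.2%.

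**Figure D1:**
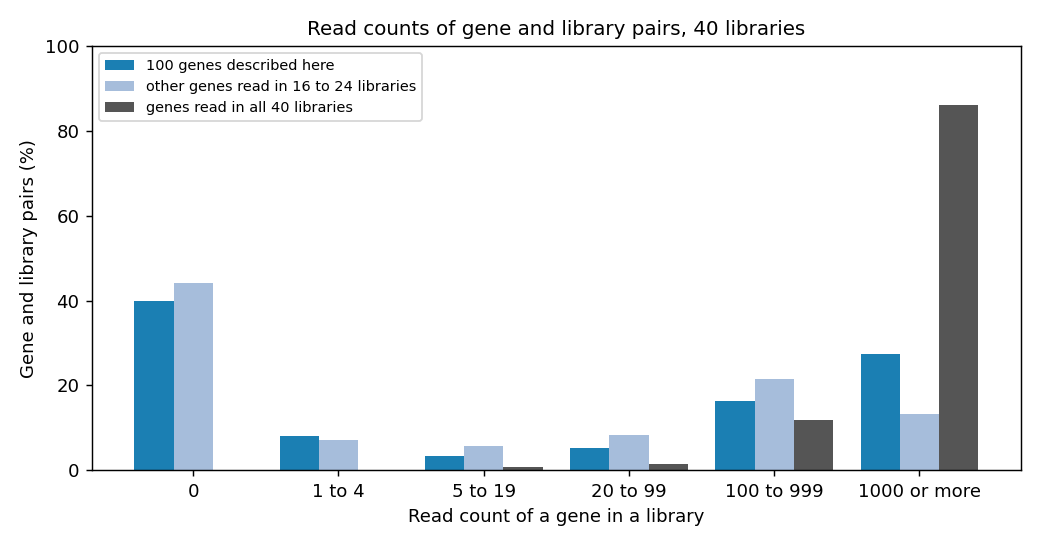
Bars give the percent of gene and library pairs (y axis) by read count of the gene in the library (x axis) over 40 libraries, for the 100 members, the other 1684 genes read in 16 to 24 libraries and the 120 genes read in every library. The members stand at 39.9% with no count and 27.3% with 1000 or more counts, and only 3.35% hold 5 to 19.

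The median level of a member in the libraries that read it lay between 152 and 938 CPM. It was under 200 CPM for 80 members, from 200 to under 300 CPM for 19 and above that for 1. The threshold cut through a dense range: the last members, ENSBTAG00000017753 and ENSBTAG00000001807, both had 152.4 CPM, and the first genes outside, ENSBTAG00000006014 and ENSBTAG00000025564, had 152.2 and 151.9 CPM. The members lay more towards the upper end of the allowed band, with 20 read in 22 libraries and 16 in 23, against 6 read in 16. Within the libraries that read a member, its level was far from constant. The highest level was between 11.6 and 1686 times the lowest, with a median over members of 369. The coefficient of variation (SD over mean) in these libraries was 0.578 to 1.87 with a median of 0.891, against a median of 1.2 for the other genes of the band and 0.569 for the 120 genes read in all 40 libraries.

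The members were not spread evenly over the embryos. A median of 51.5 of the 100 was read per library, from 10 in not established replicate 25 to 87 in maintained replicate 3. The next lowest were lost replicate 4 with 20, not established replicate 24 with 21 and maintained replicate 10 with 22, and the next highest maintained replicate 7 with 83 and maintained replicate 2 with 78. The libraries low in members were those low in genes altogether. Over the 40 libraries the number of members read and the number of all genes read had a Spearman correlation of 0.957 and a Pearson correlation of 0.960, given as a description, since the members are part of all genes and both counts come from the same library. For the other genes of the band the Spearman value was 0.997. The Spearman correlation between all genes read and the library total was 0.421.

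The summed share of counts held by the members varied less than their number. It was 1.60% in not established replicate 25, with 10 members read, and 1.14% in maintained replicate 3, with 87. Over the 40 libraries it lay between 0.485% in maintained replicate 10 and 1.64% in not established replicate 5, with a mean of 1.17% ± 0.256 (SD, n = 40). Without not established replicate 25 the number read ran from 20 to 87 and the share again from 0.485% to 1.64%, so the contrast was smaller. The share and the number of all genes read had a Spearman correlation of 0.253 over the 40 libraries. Where fewer members were read, those that were read tended to stand higher. Their median level was 1551 CPM in not established replicate 25, between 82.0 and 360.1 CPM in the other 39 libraries, and 123 CPM in maintained replicate 3. The Spearman correlation of this median with the number of all genes read was -0.56 (Pearson -0.46). For the other genes of the band it was -0.44 (Pearson -0.55), so the members did not stand alone in this. It was 0.091 for the median level of the 120 genes read in every library, which stayed between 621 and 1276 CPM. Not established replicate 24 did not follow this order, with 21 members read at a median of 82.0 CPM.

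**Figure D2:**
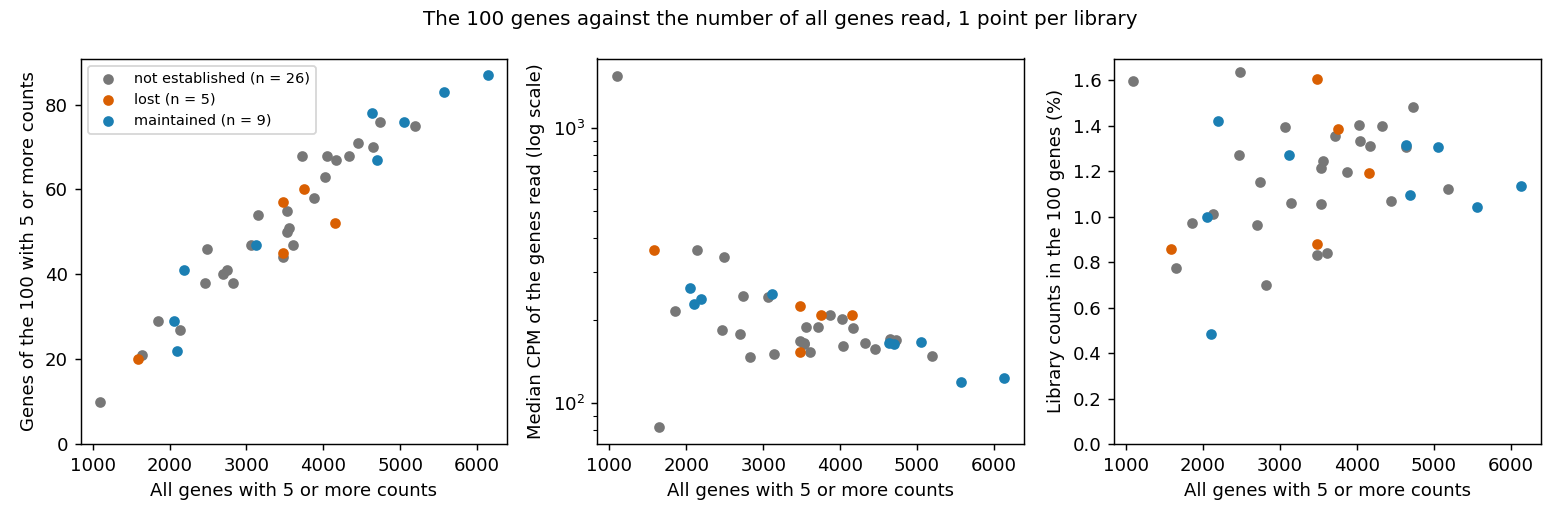
Each point is 1 of 40 libraries, coloured by outcome group, with the number of all genes holding 5 or more counts on the x axes. The y axes give the number of members read, the median CPM of the members read (log scale) and the percent of the library's counts in the members. The number read runs from 10 to 87, or from 20 without not established replicate 25, and the share of counts from 0.485% to 1.64%.

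ENSBTAG00000035379 was the member with the highest rank. It held no count in 18 libraries and none held 1 to 4 counts, as was also so of ENSBTAG00000005760 and ENSBTAG00000000806. In 16 of the 22 reading libraries it stood between 500 and 2000 CPM, and not established replicate 25 had 4163 CPM. The other 5 reading libraries had 2.77, 11.1, 18.2, 148 and 166 CPM. No library lay between 20 and 100 CPM, nor did any for ENSBTAG00000020164. ENSBTAG00000035379 was the highest of the 100 members in 13 of the 40 libraries. Its levels in not established libraries had a lowest value of 0, a median of 668 CPM and a highest of 4163 CPM. The maintained libraries had 0, 2.77 and 980 CPM for the same quantities, and the lost libraries 0, 0 and 944 CPM. The groups overlapped from 0 upwards. It was read in 15 of 26 not established, 2 of 5 lost and 5 of 9 maintained libraries. Among not established embryos 9 of 12 with CSF2 and 6 of 14 with vehicle read it, and among maintained embryos 2 of 5 and 3 of 4. No adjusted p of this gene was below 0.05 in the comparisons of outcome or treatment given below.

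ENSBTAG00000027803, the second in rank, was read in 24 libraries with a median of 299 CPM there and a highest level of 1202 CPM in not established replicate 28. It was at 0 in 13 libraries. In the lost group replicates 1, 3, 4 and 6 had 819, 619, 334 and 931 CPM and replicate 2 had 0. Not established libraries ran from 0 through a median of 8.91 to 1202 CPM, and maintained libraries from 0 through 107 to 748 CPM. The ranges thus overlapped although 4 of 5 lost libraries were high. ENSBTAG00000027803 had no adjusted p below 0.05 in any comparison given below. ENSBTAG00000020164, the third, was read in 21 libraries with a median of 296 CPM. ENSBTAG00000013982, the fourth, was read in 23 libraries with a median of 276 CPM and its highest level, 1511 CPM, in not established replicate 25.

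**Figure D3:**
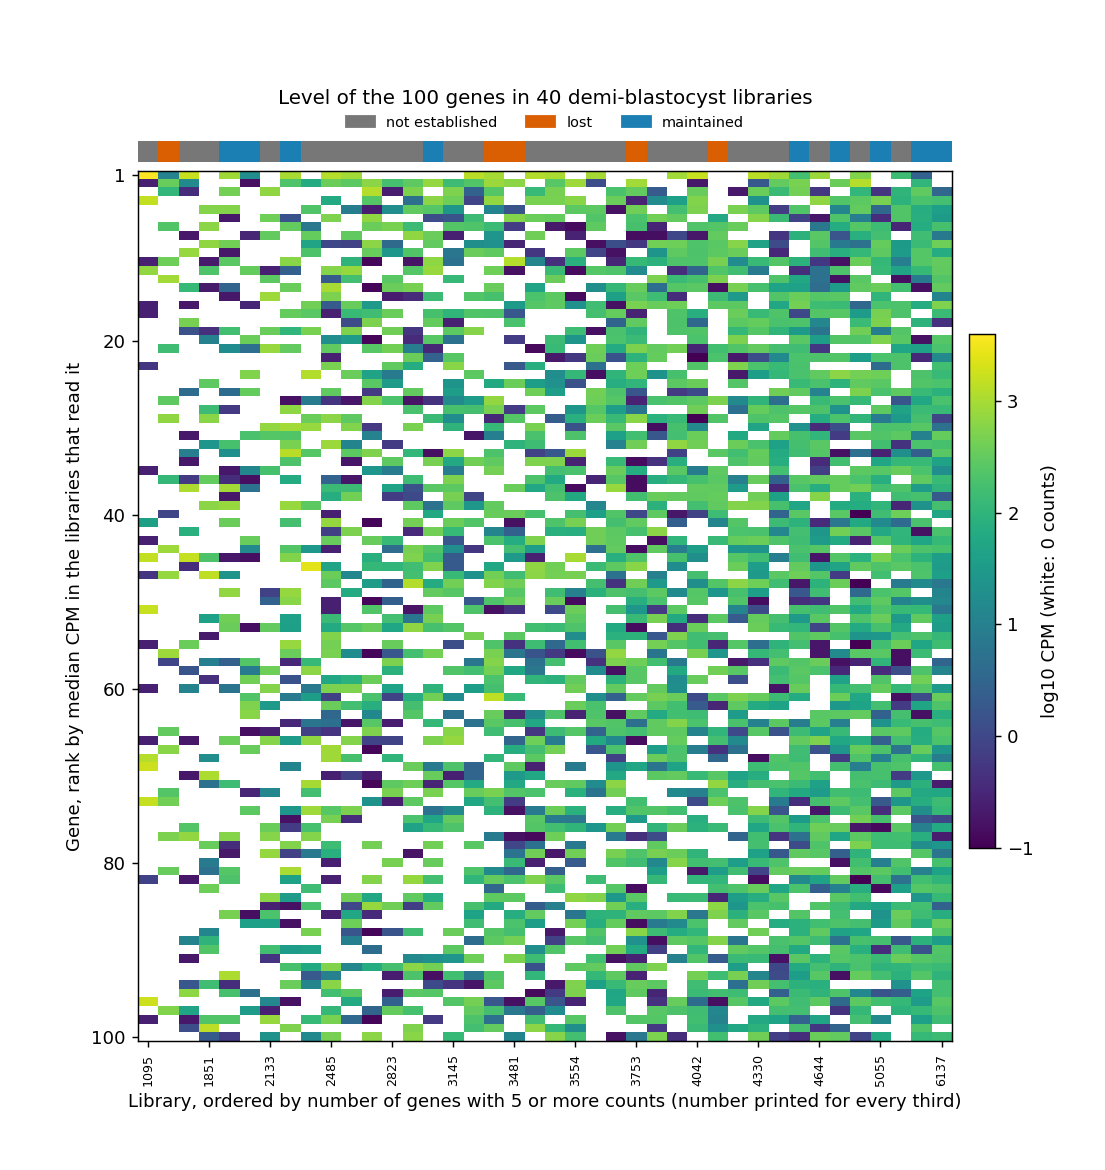
Rows are the 100 members in rank order and columns the 40 libraries ordered by the number of all genes read, from 1095 to 6137. Colour gives log10 CPM, white marks 0 counts, and the strip above gives the outcome group. White cells fill most of the left side and thin out to the right, while the first row, ENSBTAG00000035379, holds values on the left as well.

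Whether members were read in the same embryos was described by phi, the correlation of 2 read or not read patterns over the 40 libraries. Over the 4950 pairs of members phi had a median of 0.137, with its middle 50% between 0.036 and 0.245, and 79.4% of pairs were above 0. These values share the libraries, in which the number of members read goes with the number of all genes read. The closest pair was ENSBTAG00000031917 and ENSBTAG00000002356, both read in 19 libraries, both not read in 14, and split in 7 (phi 0.646). Next came ENSBTAG00000001651 with ENSBTAG00000002849 (phi 0.612) and ENSBTAG00000012135 with ENSBTAG00000004249 (phi 0.603). At the other end ENSBTAG00000035379 and ENSBTAG00000001807 were both read in 6 libraries and both not read in 4, with 16 reading only the first and 14 only the second (phi -0.50). ENSBTAG00000035379 with ENSBTAG00000003934 (phi -0.39) and ENSBTAG00000027803 with ENSBTAG00000007173 (phi -0.37) followed. The median phi to the other 99 members was below 0 for 2 members, ENSBTAG00000027803 (-0.041) and ENSBTAG00000035379 (-0.010), and reached 0.250 at the top. By this median the reading of the members with the highest and second highest rank went least with that of the rest. The next member, ENSBTAG00000017753, had a median of 0.041, and the SD of phi over all pairs was 0.157. Phi was not taken for the other genes of the band, so no trait of these 2 members is read from it.

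The 5 shallower libraries, which the choice did not use, read almost none of the members. Not established replicate 8 read 5, not established replicate 29 and lost replicate 5 read 1 each, and not established replicate 27 and maintained replicate 8 read 0. These libraries read between 50 and 502 genes in all. Together they read 6 different members. ENSBTAG00000002836 was the largest, with 2415 counts and 3514 CPM in lost replicate 5, above its highest level of 515 CPM in the 40 libraries. With 3 counts a count of 0 in these libraries allows up to 3.51 to 21.8 CPM, which covers counting error only. This lies below the median level of each member in the libraries that read it. Single libraries among the 40 read members at levels as low as 0.592 CPM, however. The lack was not particular to the members. The median level of the 120 genes read in all 40 libraries was 0 to 7.26 CPM in the shallower ones, against 621 to 1276 CPM in the 40. Of the other genes of the band the shallower libraries read 0.416% to 5.70%. The cause was not tested. Only 41 members held any count in the 5 shallower libraries.

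The outcome groups were compared next, which asks whether the genes present in the sequenced part went with the fate of its sister. The choice used no outcome or treatment label, so these tests are separate from it. A mean of 50.8 ± 17.4 members (SD, n = 26) was read per not established library. Lost libraries read 46.8 ± 16 (SD, n = 5) and maintained libraries 58.9 ± 24.5 (SD, n = 9). All genes read, which move with this number, averaged 3347 ± 1016 (SD, n = 26), 3290 ± 992 (SD, n = 5) and 3950 ± 1599 (SD, n = 9), and their part in the difference was not tested. The differences in members read were smaller than the SD within each group. The members held 1.18% ± 0.246 (SD, n = 26), 1.19% ± 0.322 (SD, n = 5) and 1.12% ± 0.276 (SD, n = 9) of counts. The median share of libraries reading a member was 50.0%, 40% and 55.6% in this order. No member was read by every lost or by every maintained library, which was not counted for the other genes of the band. For the 26 not established libraries the upper limit of 24 reading libraries fixed this beforehand. None of the 5 lost libraries read 2 of the members, ENSBTAG00000014773 and ENSBTAG00000011360, nor 64 (3.80%) of the other 1684 genes of the band.

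In edgeR with its filter on low counts no member passed the test in any outcome comparison, while DESeq2 called from 1 to 5 members in each. All 100 passed the filter on low counts and were tested among 7476 genes with edgeR's quasi-likelihood test and Benjamini-Hochberg adjustment. Between maintained and not established embryos 0 members were called where 0.134% of all genes were, and 1 member had an unadjusted p below 0.05 against 8.75% of all genes. DESeq2 called 1 (1.95% of all genes), ENSBTAG00000019819, and limma voom 0 (0.0%). Between lost and not established embryos edgeR called 0 members (0.0401% of all genes), and 6 had an unadjusted p below 0.05 (17.4%), while DESeq2 called 5 (7.68%) and limma voom 1 (0.134%). By DESeq2 ENSBTAG00000014773, ENSBTAG00000011360, ENSBTAG00000003941 and ENSBTAG00000047471 were lower and ENSBTAG00000019819 higher in lost embryos, and the limma voom call was ENSBTAG00000014773. Between maintained and lost embryos edgeR called 0 (0.0%), with 5 under the unadjusted limit (16.6%), DESeq2 4 (7.38%), which were the 4 just named as lower in lost embryos, and limma voom 0 (0.0134%). For any pregnancy at day 30 against none, edgeR called 0 (0.615%), with 2 under the unadjusted limit (7.57%), DESeq2 1 (3.26%), again ENSBTAG00000019819, and limma voom 0 (0.0%). DESeq2 gave no adjusted p for 5 members except in this last comparison. In all 4 comparisons the members' share under the unadjusted limit was below that of all genes. The choice took genes unread in many libraries and high in others, so it also bears on their spread and on p. The same share was not counted for the other genes of the band, so no conclusion is drawn from it. The 4 comparisons share the not established or the maintained and lost libraries, so they are not independent.

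The members' fitted log2 changes had a median of -0.01 in maintained against not established embryos, beside -0.01 over all genes tested. The medians were -0.18 beside -0.49 in lost against not established, 0.37 beside 0.53 in maintained against lost, and -0.08 beside 0.05 for any pregnancy. In the first comparison 50 members were higher and 50 lower.

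ENSBTAG00000014773 had the smallest p of the members in both comparisons with the lost group. It was read in 17 of 26 not established and 7 of 9 maintained libraries and in 0 of 5 lost libraries. The lost libraries held 1 count of it in all, 0.140 CPM in replicate 6. Not established libraries ran from 0 through a median of 63.5 to 696 CPM and maintained libraries from 0 through 110.5 to 358 CPM. Every lost library was thus at the low end, which the other groups also reach, with 8 not established and 1 maintained libraries at 0. The fitted log2 change was -11.43 (SE 3.61) from not established to lost embryos, adjusted p = 0.172 by edgeR, and it rests on 1 count in the lost libraries. With each library left out in turn the adjusted p lay between 0.168 and 0.255 in edgeR. The gene was called lower in lost by DESeq2 (adjusted p = 2.58e-08), by limma voom (adjusted p = 0.0461) and by edgeR with no filter on low counts (adjusted p = 0.0363). For maintained against lost embryos the adjusted p was 0.189 in edgeR and 1.26e-06 in DESeq2. The shallow lost replicate 5, outside this fit, held no count of it, but neither did the other 4 shallow libraries.

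ENSBTAG00000004400 was second in both comparisons. It was read in 17 of 26 not established, 5 of 9 maintained and 1 of 5 lost libraries, the last with 1.78 CPM. The other 4 lost libraries had 0, 0, 0.157 and 0.159 CPM. Not established libraries ran from 0 through 34.9 to 1784 CPM and maintained libraries from 0 through 3.84 to 254.5 CPM. The highest value, in not established replicate 25, made up 35.1% of the gene's summed CPM over the 40 libraries. The adjusted p was 0.172 against not established and 0.189 against maintained embryos in edgeR, and DESeq2 gave it no adjusted p in either.

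**Figure D4:**
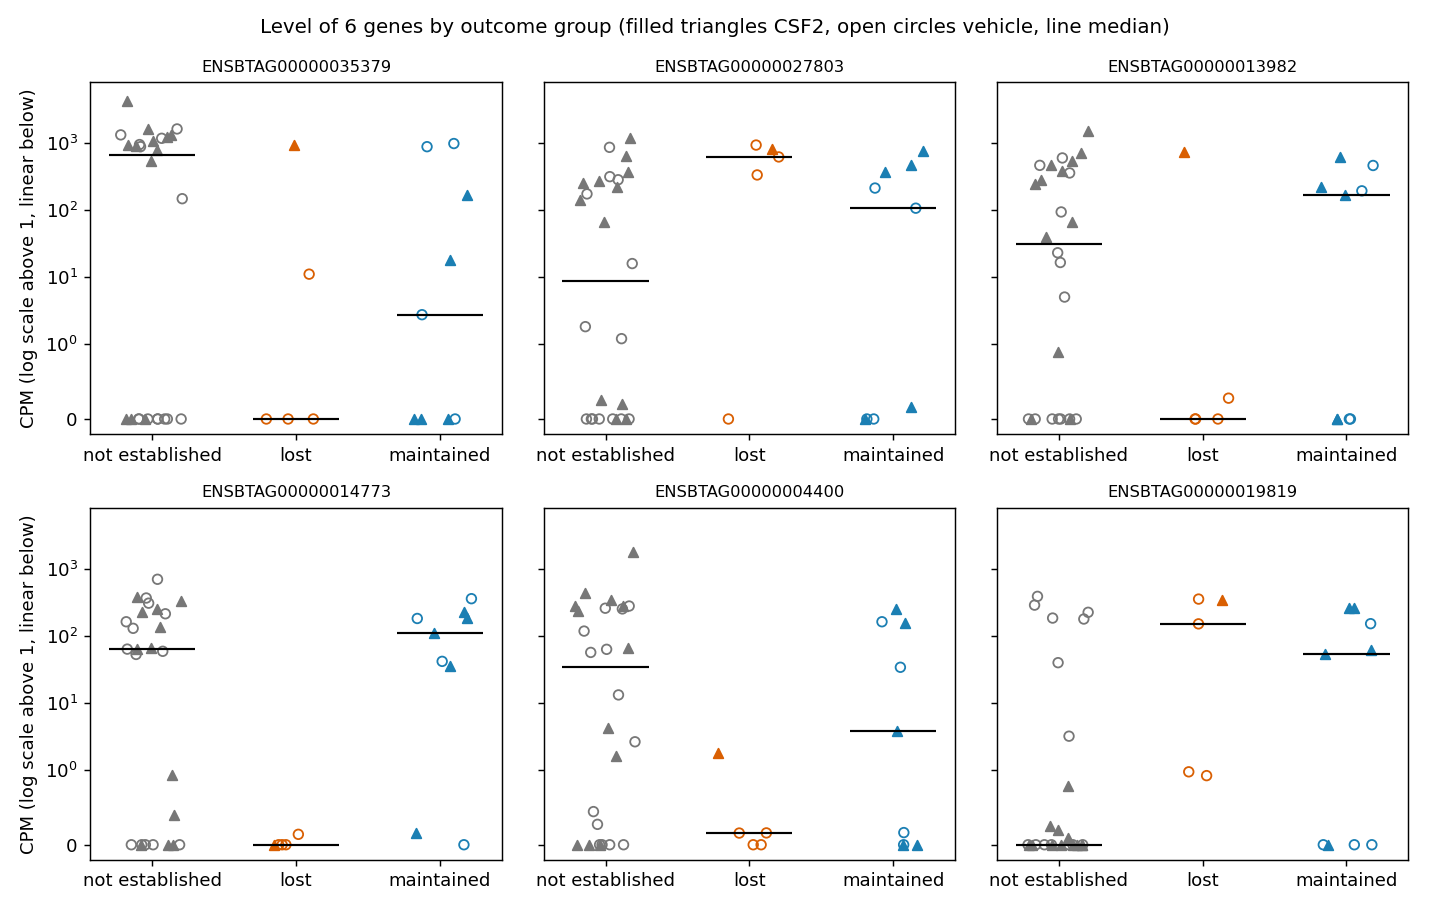
CPM of 6 members (y axis, log scale above 1 and linear below) by outcome group (x axis) in 40 libraries, with filled triangles for CSF2, open circles for vehicle and a line at the group median. In ENSBTAG00000014773 the 5 lost libraries lie at 0 to 0.140 CPM, and in the other panels libraries of every group lie both below and above 1 CPM.

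ENSBTAG00000019819 had the smallest p in the comparison of maintained and not established embryos, in that of any pregnancy, and in that of CSF2 and vehicle. It was read in 8 of 26 not established, 4 of 5 lost and 5 of 9 maintained libraries. The split by treatment was uneven: among not established embryos 1 of 12 with CSF2 read it, at 0.788 CPM, and 7 of 14 with vehicle did, with up to 387 CPM. Among maintained embryos 4 of 5 with CSF2 and 1 of 4 with vehicle read it, and the 1 lost CSF2 embryo had 339 CPM. Whether the effect of treatment differed between the outcomes was not tested. The mean of the maintained libraries was 87.9 ± 110 CPM (SD, n = 9) and that of the not established ones 50.2 ± 107 CPM (SD, n = 26). The fitted log2 change of 7.26 (SE 3.38, adjusted p = 0.473, edgeR) was far larger than the ratio of these means, in a model with treatment as a term. DESeq2 called the gene for maintained (adjusted p = 0.00619) and for any pregnancy (adjusted p = 0.000124) against not established, for lost against not established (adjusted p = 0.012) and for CSF2 against vehicle (adjusted p = 0.000392). In edgeR the adjusted p for any pregnancy was 0.452.

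ENSBTAG00000005444 came second for maintained against not established embryos and for any pregnancy. It was read in 12 of 26 not established, 4 of 5 lost and 7 of 9 maintained libraries. Levels ran from 0 through a median of 0.484 to 371 CPM in not established, from 0 through 386 to 1218 CPM in lost, and from 0 through 246 to 646 CPM in maintained libraries. The medians of the pregnant groups lay high, but each group held a library at 0. The log2 change for any pregnancy was 2.47 (SE 1.2, adjusted p = 0.599, edgeR).

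Treatment was compared with outcome in the model. Libraries with CSF2 read 53.2 ± 19.8 members (SD, n = 18) and those with vehicle 51.3 ± 18.7 (SD, n = 22), a difference below the SD of either group, with 3514 ± 1198 (SD, n = 18) and 3444 ± 1162 (SD, n = 22) of all genes read. EdgeR called 0 of 100 members (0.669% of all genes), 2 had an unadjusted p below 0.05 (9.62%), DESeq2 called 1 (2.74%), ENSBTAG00000019819, and limma voom 0 (0.0%). The fitted level of ENSBTAG00000019819 was lower under CSF2, but the means went that way only among not established embryos, with 0.111 CPM under CSF2 and 93.1 CPM under vehicle. In maintained embryos they were 128 and 38.0 CPM, and in lost embryos 339 CPM in the 1 CSF2 library and 126 CPM under vehicle. The members' median log2 change was 0.05 beside 0.01 over all genes. ENSBTAG00000013982 had the second smallest p. CSF2 libraries ran from 0 through a median of 234 to 1511 CPM and vehicle libraries from 0 through 0 to 598 CPM. Means were 331 ± 390 CPM (SD, n = 18) and 101 ± 188 CPM (SD, n = 22), so the difference was smaller than the spread among CSF2 libraries (log2 change 2.07, SE 1.02, adjusted p = 0.472, edgeR). The log2 change was 1.40 (adjusted p = 0.796, edgeR) without lost replicate 1, the only lost embryo with CSF2. Leaving out single libraries gave log2 changes from 1.40 to 2.54.

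The members being mostly at 0 or high, the numbers of libraries reading each gene were also compared by Fisher's exact test, two-sided, over 9042 genes read in 3 to 37 libraries. For any pregnancy against none 0 members and 0.0% of all genes passed the adjusted limit, and 1 member had an unadjusted p below 0.05 against 3.82% of all genes. That member, ENSBTAG00000020496, was read in 11 of 14 embryos with pregnancy and 10 of 26 without (Fisher's exact test, p = 0.0219, adjusted p = 1.0). The next was ENSBTAG00000019819, with 9 of 14 and 8 of 26 (Fisher's exact test, p = 0.0525). For CSF2 against vehicle 0 members and 0.0% of all genes passed, and 1 member had an unadjusted p below 0.05 against 2.21%. This was ENSBTAG00000013982, read in 14 of 18 CSF2 and 9 of 22 vehicle embryos (Fisher's exact test, p = 0.0267, adjusted p = 1.0). ENSBTAG00000015792 followed with 7 of 18 and 16 of 22 (Fisher's exact test, p = 0.0534). A larger share of pregnant embryos read 59 of the members, a smaller share read 38, and 3 were equal. Over all 9042 genes 58.6% were read in a larger share of pregnant embryos and 40.8% in a smaller one. In the edgeR fit of the same comparison 48 members were higher and 52 lower. With CSF2 the numbers for the members were 57, 40 and 3, beside 51.3% and 48.1% of all genes, and the fit had 54 higher and 46 lower.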

How the data were processed

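The deposited table gives raw counts, as whole numbers and not normalized, for 24616 Ensembl identifiers in 45 libraries. The submitters' processing notes name UMD3.1, bosTau8 and edgeR; for the aligner, counter, strand use and duplicate handling, nothing is given in the sources used here. RNA was extracted with a column kit and libraries were made with a NuGEN Ovation SoLo kit, per the labels' protocols. Columns were matched by title. No 2 columns were identical, and the highest correlation of log2(CPM + 1) between 2 of the 40 libraries was 0.677.

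The 40 libraries of 1000000 or more counts entered 1 edgeR 4.0.16 fit (R 4.3.3; filterByExpr, TMM, robust quasi-likelihood F test) with outcome and treatment as terms; an adjusted p below 0.05 was a call. Any pregnancy was fitted with lost and maintained joined. The SE is the log2 change over the square root of F. Alternatives used DESeq2 1.42.0 and limma 3.58.1. The test was checked on simulated counts with 1 spread for all genes and no added zeros. The members differ from this in their many zeros, so the check does not show how the test performs on them. Fisher's test used scipy 1.17.1.

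Members and lists were chosen with earlier results of these data known. The lists and markers need symbols and 0 identifiers matched the supplied table, so they were not run. The rule for named genes took the 4 top-ranked members where names are lacking; all others, taken by smallest p, extreme phi or rank at the threshold, were named after their values were seen.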

Additional observations from a re-analysis of the deposited data

Results flagged for a closer look

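In each outcome group of 5 (lost) or 9 (maintained) deeper libraries, 12 measures were looked at for 1 library lying far from the others, which gives 24 groups, and 5 stood out. Chance gives about 1 in 20 groups for normally distributed values, which the CPM of genes at 0 in many libraries are not, so the number is not read as an excess. The members held 0.485% of the counts in maintained replicate 10 and 1.0% to 1.42% in the other 8 maintained libraries. Lost replicate 1, the only lost embryo with CSF2, had 944 CPM of ENSBTAG00000035379 against 0 to 11.1 CPM in the other 4 lost libraries. The same library had 728 CPM of ENSBTAG00000013982 against 0 to 0.279 CPM, and 1.78 CPM of ENSBTAG00000004400 against 0 to 0.159 CPM. Lost replicate 6 had 0.140 CPM of ENSBTAG00000014773, which was 1 count, against 0 in the others.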

How the results depend on the processing

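The number of members called was 0 in every comparison in edgeR with DESeq2's size factors, library totals without TMM, all 45 libraries, the other factor dropped, an adjusted p of 0.10, and each of the 40 libraries left out in turn (0 to 0). DESeq2 called 1 for maintained against not established, 5 for lost against not established, 4 for maintained against lost, 1 for any pregnancy and 1 for CSF2. Limma voom and edgeR with no filter each called 1 for lost against not established. The cause was not tested. No change of direction was seen in the log2 changes of the 2 members with the smallest p per comparison. Under a replicate block on the 9 numbers shared by maintained and not established libraries, 0 of 69 tested members were called, as without it. Deviations from the group mean in same-numbered libraries had correlations from -0.027 to 0.029. These do not settle whether the numbers pair embryos, which the labels do not state. Fisher's test called 0 at 1 or 10 counts and with all 45 libraries. Of the 100 members, the choice kept 71 at 10 counts, 84 at 3 counts, 41 when ranked by the mean over all 40 libraries and 33 with a band of 12 to 28 libraries. The median phi was 0.137 at 10 counts as at 5.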
